A study of Mus musculus with 8 samples.

Results

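The integrated stress response genes described here are Atf4, Ddit3, Trib3, Asns, Chac1, Sesn2, Ppp1r15a, Ddit4, Hspa5 and Xbp1, followed in Hepa-1c1c7 (Hepa-1) cells, a mouse hepatoma line, after hexavalent chromium, Cr(VI). They were chosen by name, with earlier results of these data known. All 10 symbols were matched to Entrez identifiers among the 23403 genes of the count table, and all 10 passed the filter on low counts. RNA-seq covered 2 libraries of cells given 25 µM CrK2O4 for 90 minutes and 2 control libraries, whose labels do not say which chromium regimen they accompanied. FAIRE-seq, which recovers nucleosome-depleted DNA by its partition into water on phenol-chloroform extraction, covered 1 library each of the acute 25 µM treatment and of growth in 0.5 µM CrK2O4 for 20 passages, with 1 control library for either regimen. Expression under the 0.5 µM regimen was not analysed here. The labels do not say that replicates came from separate cultures, so the p-values measure only the spread between these libraries.

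In the integrated stress response, kinases that sense amino acid shortage, unfolded protein, heme loss or double-stranded RNA phosphorylate the translation factor eIF2, which lowers protein synthesis in general and raises translation of the Atf4 mRNA. ATF4, and CHOP encoded by Ddit3, then activate genes of amino acid supply, redox balance and feedback, while ATF6 and the spliced form of XBP1 drive chaperone genes such as Hspa5 in the parallel branches of the unfolded protein response. Because ATF4 is controlled by translation and XBP1 by splicing, the gene-level mRNA counts used here do not measure the activity of either factor.

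Promoter letters are shown for the genes that carry a response element known in this pathway, because these elements are what sets apart direct ATF4 and endoplasmic reticulum (ER) stress targets in textbooks. RefSeq promoters (build GRCm38.p6), from 250 bases before to 50 after a start site, were searched on both strands for the CARE of ATF4 and its partners (TGATGNAA), the AP-1 element (TGACTCA or TGAGTCA), the UPRE of XBP1 (TGACGTGG) and the ERSE of ATF6 (CCAAT and CCACG 9 bases apart). Each sequence is written 5′ to 3′ on the strand of its gene, with the matched element in capitals.
Trib3, CARE, reverse strand, chr2:152344028-152344057: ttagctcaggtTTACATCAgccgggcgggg
Asns, CARE, chr6:7693210-7693247: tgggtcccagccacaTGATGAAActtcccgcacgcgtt
Chac1, CARE, reverse strand, chr2:119351034-119351071: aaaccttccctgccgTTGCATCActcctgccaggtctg
Ddit3, AP-1, chr10:127290543-127290572: cgcgcgcaTGACTCActcacctcctccgcg
Hspa5, AP-1, chr2:34771893-34771929: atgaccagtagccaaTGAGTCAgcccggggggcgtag
Hspa5, ERSE, chr2:34772010-34772058: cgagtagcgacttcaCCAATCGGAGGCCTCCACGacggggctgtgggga

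The CARE letters lay at -23 to -16 from the start site in Asns, at -193 to -186 in Chac1 and at 15 to 22, after the start, in Trib3. Thus 3 of 10 promoters held a CARE match, against 3.97% of all 32841 promoters of the same length. AP-1 letters were found in 2 of 10, Ddit3 (-242 to -236) and Hspa5 (-182 to -176), against 5.2% of all promoters. The ERSE letters occurred in Hspa5 alone of the 10 (-65 to -47), against 0.119% of all promoters, and the UPRE letters in none of the 10, against 0.676%. In the 250 bases before the start site alone, 2 of 10 promoters held a CARE match, against 3.45% of all. The table holds 1 promoter for each of the 10 genes, although Ddit3 has 2 and Asns 3 annotated start sites, and more than 1 for some other genes. Counted over its 27018 genes, with a match in any promoter of a gene, the shares were 4.51% for CARE, 5.95% for AP-1, 0.137% for ERSE and 0.714% for UPRE. The promoters of Atf4, Sesn2, Ppp1r15a, Ddit4 and Xbp1 held none of these letters. A match is a description of the window and does not show that a factor was bound.

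Total counts per RNA-seq library ran from 32319676 to 37696116. The treated libraries differed from each other more than the controls did, with 1404 of 13619 tested genes (10.3%) over 2-fold apart between the treated pair and 83 (0.609%) between the control pair. Of the markers of liver cells, Afp, Krt8 and Krt18 were abundant, while Hnf4a and Apoa1 were near 0, and Alb and Ttr were called higher in treated libraries by edgeR. The summed level of the 10 liver markers was 3130 and 3250 CPM (counts scaled to library size) in control and 6019 and 6656 in treated libraries. Most of that difference was Alb, at 904.6 and 947.5 CPM in control and 3667 and 3550 in treated libraries, and without Alb the sums were 2226 and 2303 in control and 2353 and 3107 in treated libraries. Of 10 markers of other cell types, Cdh5 and Cd3e had no count in any library, 5 including these had at most 5 counts in each, and the endothelial marker Pecam1 was called higher. The summed level of the 10 was 226.4 and 230.2 CPM in control and 253.7 and 399.0 in treated libraries, nearly all of it Col1a1, at 203.2 and 206.9 CPM in control and 234.3 and 364.1 in treated libraries. The part of these differences in the results below was not tested, and in bulk RNA fewer cells with an mRNA cannot be told apart from less of it per cell.

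Across the 10 genes, Trib3, Atf4, Hspa5, Sesn2, Ppp1r15a and Ddit4 stood above both controls in both treated libraries, and of these edgeR called only Trib3. Treated replicate 2 was the higher for each of them. Ppp1r15a, Sesn2, Ddit4 and Ddit3 were more than 2-fold higher in treated replicate 2 than in treated replicate 1. At an adjusted p-value under 0.05 (edgeR's quasi-likelihood test with Benjamini-Hochberg adjustment over all tested genes), 1 of 10 genes was called higher, against 1.78% of all tested genes, and 0 of 10 were called lower, against 2.85%. In either direction the share of all tested genes was 4.63%. At an unadjusted p under 0.05, 3 of 10 were higher (Atf4, Trib3 and Hspa5), against 15.6% of all tested genes, and 1 was lower (Chac1), against 15.1%. DESeq2, an alternative count model, called 4 of 10 higher (Atf4, Trib3, Sesn2 and Hspa5), against 7.76% of all genes, and 1 of 10 lower (Chac1), against 7.46%. Both treated libraries lay above both controls for 6 of 10 genes, against 32.2% of all tested genes, and below both controls for 1 of 10, against 34.0%. The median log2 fold change of the 10 genes was 0.74, and that of all tested genes was -0.0047.

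**Figure D1:**
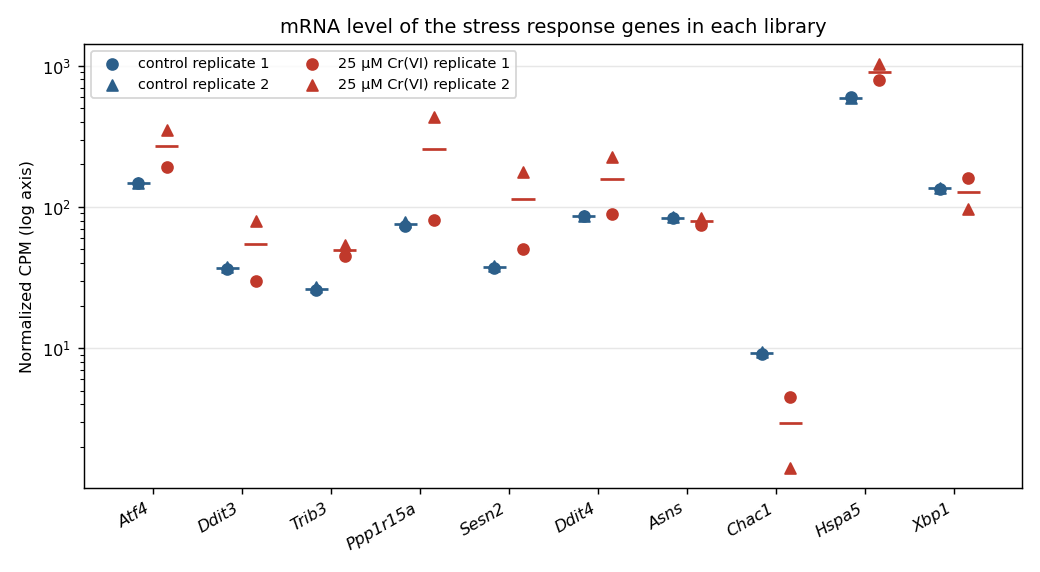
Level of each gene in normalized CPM on a log axis, with 1 point per library (circles replicate 1, triangles replicate 2) and a bar at the mean of each group, controls in blue and 25 µM Cr(VI) in red. The control points coincide, and the treated points lie furthest apart for Ppp1r15a, at 81.34 and 433.6 CPM.

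Among the transcription factors, Atf4 (chr15:80255184-80257545), the central activator of the pathway, stood at 191.4 and 350.5 normalized CPM in treated replicates 1 and 2, against 148.7 and 148.2 in control replicates 1 and 2. Both treated libraries lay above both controls, by a wider margin in replicate 2. Its log2 fold change was 0.87 (SE 0.31), which did not pass the threshold (edgeR's quasi-likelihood test, adjusted p = 0.154).

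Ddit3 (chr10:127290793-127296291), which encodes CHOP, a factor linked to cell death under prolonged stress, stood at 29.7 and 79.03 CPM in treated and 36.42 and 37.32 CPM in control libraries. Treated replicate 1 lay below both controls and treated replicate 2 above both, so the groups overlapped. The log2 fold change of Ddit3 was 0.56 (SE 0.48, edgeR, adjusted p = 0.471). It was -0.31 without treated replicate 2 and 1.13 without treated replicate 1. Ddit3 overlaps Mars1 and Mbd6 on the opposite strand, and as the use of strand in counting is not given, its counts are uncertain to that extent.

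Xbp1 (chr11:5520641-5525993), whose mRNA is spliced by IRE1 to give an active factor, stood at 159.7 and 96.15 CPM in treated and 134.7 and 136.5 CPM in control libraries. The treated libraries fell on opposite sides of the controls, with replicate 1 the higher. Its log2 fold change was -0.08 (SE 0.26, edgeR, adjusted p = 0.852), and it was 0.23 without treated replicate 2 and -0.47 without treated replicate 1. Counts per gene do not separate the spliced from the unspliced mRNA.

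Among the feedback genes, Trib3 (chr2:152337425-152344060), a pseudokinase induced by ATF4 and CHOP that restrains ATF4 itself, stood at 44.96 and 53.51 CPM in treated and 25.83 and 26.88 CPM in control libraries. Both treated libraries were well above both controls and close to each other, with 65.4% of tested genes further apart between the treated libraries than Trib3. Trib3 rose with a log2 fold change of 0.90 (SE 0.14, edgeR's quasi-likelihood test, adjusted p = 0.0486), at 1.71 times the control mean in replicate 1 and 2.03 times in replicate 2. The call is close to the threshold: it was lost with library size as the only normalization (adjusted p = 0.0591), and without control replicate 1 or 2 (adjusted p = 0.376 and 0.316), while DESeq2 kept it (adjusted p = 0.00136). In the fits without a control the spread came from the treated pair alone, and the log2 fold change of Trib3 was 0.87 and 0.93. Its promoter is the one with the CARE letters after the start site.

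Ppp1r15a (chr7:45522917-45526268) encodes GADD34, which directs a phosphatase to eIF2 and so ends the response. It stood at 81.34 and 433.6 CPM in treated and 72.74 and 77.6 CPM in control libraries. Treated replicate 1 was barely above the controls, and replicate 2 was 5.77 times the control mean. This gave a log2 fold change of 1.78 (SE 0.80, edgeR, adjusted p = 0.215), and it was 0.11 without treated replicate 2. Only 0.4% of tested genes differed more between the treated libraries. Ppp1r15a overlaps Tulp2 on the opposite strand, with the same uncertainty as Ddit3.

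Sesn2 and Ddit4 both restrain mTORC1, the growth kinase complex that responds to amino acids and energy. Sesn2 (chr4:132492804-132510456) stood at 50.04 and 176.6 CPM in treated and 36.93 and 38.01 CPM in control libraries. Both treated libraries were above the controls, replicate 1 by 1.34 times and replicate 2 by 4.71 times the control mean. Its log2 fold change was 1.60 (SE 0.62, edgeR, adjusted p = 0.172), and it was 0.41 without treated replicate 2. DESeq2 called it, with an adjusted p = 0.00548.

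Ddit4 (chr10:59949675-59951770) stood at 88.76 and 224.8 CPM in treated and 85.72 and 85.56 CPM in control libraries. Replicate 1 was at 1.04 times the control mean and replicate 2 at 2.62 times, so nearly all of the difference came from 1 library. The estimate was a log2 fold change of 0.87 (SE 0.46, edgeR, adjusted p = 0.266), or 0.05 without treated replicate 2.

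Among the metabolic effectors, Asns (chr6:7675165-7693209), asparagine synthetase, stood at 73.95 and 83.76 CPM in treated and 83.53 and 84.71 CPM in control libraries. Treated replicate 2 lay between the controls and replicate 1 below them. The log2 fold change was -0.09 (SE 0.12, edgeR, adjusted p = 0.614). It was 0.02 without treated replicate 1 and -0.19 without treated replicate 2, the narrowest range among the 10 genes. Its promoter carries CARE letters next to the start site, as shown above.

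Chac1 (chr2:119351242-119354326), an enzyme that degrades glutathione, stood at 4.493 and 1.416 CPM in treated and 9.147 and 9.31 CPM in control libraries, from 152 and 41 counts against 318 and 364. It was the one gene of the 10 with both treated libraries below both controls, at 0.487 and 0.153 times the control mean. The log2 fold change was -1.63 (SE 0.56), which did not pass the threshold of edgeR (adjusted p = 0.144) and passed that of DESeq2 (adjusted p = 0.0116). Asns, Chac1 and Trib3, the genes with CARE letters, thus had fold changes near 0, below 0 and above 0.

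Hspa5 (chr2:34772090-34776529) encodes BiP, the main chaperone of the ER lumen and a target of ATF6. It stood at 787.5 and 1025 CPM in treated and 596.7 and 593.2 CPM in control libraries. Both treated libraries were above both controls, at 1.32 and 1.72 times their mean. The log2 fold change was 0.61 (SE 0.19, edgeR, adjusted p = 0.128, DESeq2, adjusted p = 0.0395), and it was 0.40 without treated replicate 2. Hspa5 overlaps Rabepk on the opposite strand.

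**Figure D2:**
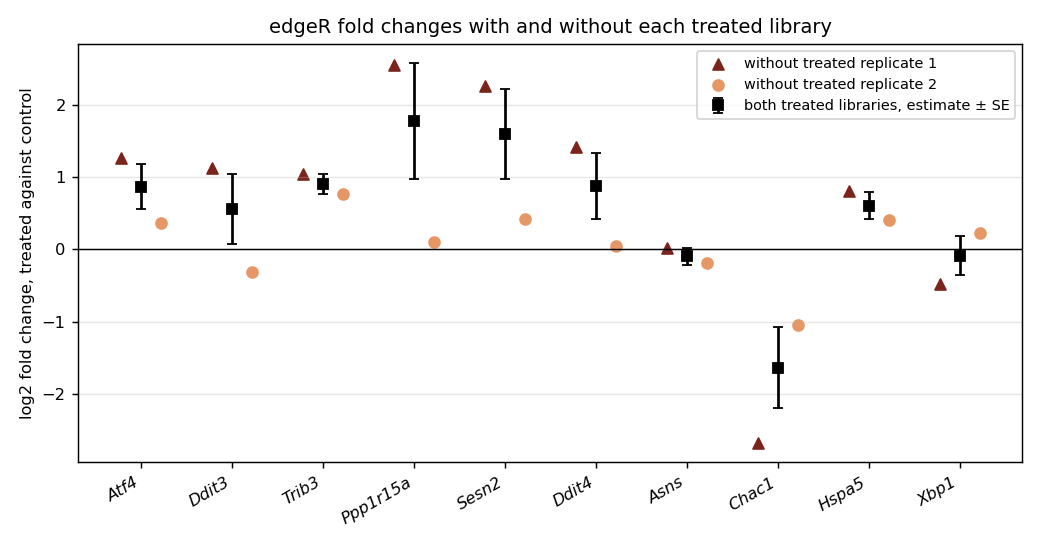
log2 fold change of each gene, 25 µM Cr(VI) against control, from edgeR: squares with bars are the estimate from both treated libraries ± SE, triangles the estimate without treated replicate 1 and circles that without treated replicate 2. Atf4, Trib3, Sesn2, Chac1 and Hspa5 keep their side of 0 at 0.36 or further with either treated library, while Ppp1r15a and Ddit4 come to 0.11 and 0.05 without replicate 2 and Ddit3, Asns and Xbp1 change sign.

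Over the 10 genes, treated replicate 2 was higher than treated replicate 1 for 8. The 2 were more than 2-fold apart in either direction for 5 (Ppp1r15a, Sesn2, Ddit3, Ddit4 and Chac1), against 10.3% of all tested genes. Replicate 2 exceeded 2 times the control mean for 6 of 10 genes and replicate 1 for 0 of 10. Of 110 other tested genes of the pathway, described below, 10 did so in replicate 2 and 1 in replicate 1. The share of all tested genes that did so was not computed. The control pair differed by ratios of 0.994 to 1.07. Against the control mean, the median log2 difference of the 10 genes was 0.17 in treated replicate 1 and 1.06 in treated replicate 2, and that of all tested genes was 0.0021 and -0.0379. Whether the exposure, the time or the handling of these cultures differed was not tested.

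Levels between genes were compared as CPM per kilobase of exon. In control cells the order from high to low was Hspa5 (227.4), Atf4 (85.86), Xbp1 (60.35), Ddit4 (50.82), Asns (35.57), Ppp1r15a (32.22), Ddit3 (14.5), Sesn2 (14.1), Trib3 (12.85) and Chac1 (5.882). The control libraries of neighbours in this order did not overlap, though Ddit3 (14.33 and 14.68) and Sesn2 (13.9 and 14.3) nearly touched. In treated cells Hspa5 remained the highest at 346.4 ± 64.16 (SD, n = 2) and Chac1 the lowest at 1.883 ± 1.387 (SD, n = 2) CPM per kilobase. Between them the treated libraries of neighbours overlapped from Atf4 through Ppp1r15a, Ddit4, Xbp1 and Sesn2 to Asns, and again for Trib3 and Ddit3, so that their order is not resolved. Ppp1r15a had the widest spread of these, at 110.4 ± 106.8 (SD, n = 2).

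The other genes of the pathway were described from 9 lists holding 118 genes, of which 110 were tested. Of these, 1 was called higher and 0 lower by edgeR, against the 1.78% and 2.85% of all tested genes given above. At an unadjusted p under 0.05, 16 (14.5%) were higher and 13 (11.8%) lower, against 15.6% and 15.1% of all tested genes. DESeq2 called 10 (9.09%) higher and 2 (1.82%) lower, against 7.76% and 7.46%.

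The gene called by edgeR was Vldlr, a lipoprotein receptor induced through ATF4 under ER stress. It stood at 28.17 and 23.65 CPM in treated and 12.17 and 12.4 CPM in control libraries. Like Trib3, it was above both controls by a similar margin in each treated library. Its log2 fold change was 1.08 (SE 0.16, edgeR's quasi-likelihood test, adjusted p = 0.0445). This call too was lost with library size only (adjusted p = 0.0889) and without control replicate 1 or 2 (adjusted p = 0.328 and 0.308), where the spread came from the treated pair alone and the log2 fold change was 1.06 and 1.09, and DESeq2 kept it (adjusted p = 0.000259). Vldlr belongs to the list of other ATF4 or CHOP targets. In that list 13 of 14 tested genes had a log2 fold change above 0, against 6761 of all 13619 tested genes. The median of the list was 0.30, against -0.0047 over all tested genes. DESeq2 called 3 of the 14 higher and 1 lower, against 7.76% and 7.46% of all tested genes. The gene called lower was Nars2, named for this call (DESeq2, adjusted p = 0.0123, edgeR, adjusted p = 0.0719). Nars2 stood at 6.709 and 5.075 CPM in treated and 11.56 and 12.10 CPM in control libraries. In treated replicate 1 alone the median of that list against the control mean was -0.03, and in replicate 2 it was 0.54.

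In the group of eIF2 kinases, eIF2, its exchange factor eIF2B and the phosphatase, edgeR called 0 of 17 genes. Their median log2 fold change was 0.08, and DESeq2 called 2 higher and 0 lower, against 7.76% and 7.46% of all tested genes. The genes with the lowest p were Ppp1r15b, the constitutive counterpart of Ppp1r15a, with a log2 fold change of 0.54 (SE 0.11, edgeR, adjusted p = 0.0647), and Eif2b2, with 0.44 (SE 0.11, adjusted p = 0.0929). Ppp1r15b was at 158.2 and 169.0 CPM in treated and 111.1 and 113.7 CPM in control libraries, and thus alike in the treated libraries where Ppp1r15a was not.

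Of 9 tested bZIP partners and related factors, edgeR called 0, with a median log2 fold change of -0.04. DESeq2 called 1 higher (Atf5) and 1 lower (Creb3l2, named for this call), against 7.76% and 7.46% of all tested genes. Atf5, a close relative of Atf4 that is also controlled by translation, had a log2 fold change of 0.93 (SE 0.25, edgeR, adjusted p = 0.0995, DESeq2, adjusted p = 0.00793). Nfe2l1 had -0.37 (SE 0.13, edgeR, adjusted p = 0.155). Atf3, named after its values were seen, stood at 33.96 and 155.5 CPM in treated and 24.42 and 24.14 CPM in control libraries. In the list of ATF4 or CHOP targets Bbc3 and Vegfa, also named after their values were seen, were 5.49 and 4.85 times the control mean in treated replicate 2 and 1.56 and 1.41 times in replicate 1. These 3 genes had the same high treated library as Ppp1r15a and Sesn2, but as they were picked with these values known, this is no support for a common pattern. Of the 110 tested genes of these lists, 10 exceeded 2 times the control mean in that library. Gdf15, of the same target list and likewise named after its values were seen, went to opposite sides of the controls as Ddit3 did, at 74.96 and 751.4 CPM in treated and 250.5 and 256.5 CPM in control libraries.

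The amino acid supply arm held no call, like Asns. The median log2 fold change was 0.15 over 12 tested genes of amino acid and one-carbon synthesis, 0.08 over 9 transporters and 0.01 over 13 cytosolic tRNA synthetases. The genes with the lowest p in these lists were Pycr1 (0.81, SE 0.24, edgeR, adjusted p = 0.118) and Cth (-1.07, SE 0.35, adjusted p = 0.132) for synthesis, Slc7a1 (-0.37, SE 0.13, adjusted p = 0.145) and Slc1a5 (-0.26, SE 0.10, adjusted p = 0.18) for transport, and Tars (0.38, SE 0.11, adjusted p = 0.122) and Mars (-0.40, SE 0.13, adjusted p = 0.129) for tRNA charging. Mars is listed in the newer annotation as Mars1, the gene that overlaps Ddit3.

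The ER arm, to which Hspa5 and Xbp1 belong, also held no call by edgeR. DESeq2 called 4 of 23 tested ATF6 and XBP1 target genes higher and 0 lower, against 7.76% and 7.46% of all tested genes. Over 23 tested ATF6 and XBP1 target genes the median log2 fold change was 0.06, and both treated libraries lay above both controls for 7 and below both for 4, against 32.2% and 34.0% of all tested genes. The ER co-chaperone gene Dnajb9 (0.85, SE 0.17, edgeR, adjusted p = 0.0646) and Pdia6, a disulfide isomerase (0.84, SE 0.20, adjusted p = 0.0861), had the lowest p. Over 6 ER stress sensors and processing enzymes the median was -0.26, and the site proteases that release ATF6 had log2 fold changes of -0.55 (Mbtps2, SE 0.14, edgeR, adjusted p = 0.0934) and -0.28 (Mbtps1, SE 0.11, adjusted p = 0.168). Over 7 paralogs of the 10 genes the median was -0.15, with Ddit4l at -0.84 (SE 0.30, edgeR, adjusted p = 0.155) and Trib1 at 0.42 (SE 0.17, adjusted p = 0.184).

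**Figure D3:**
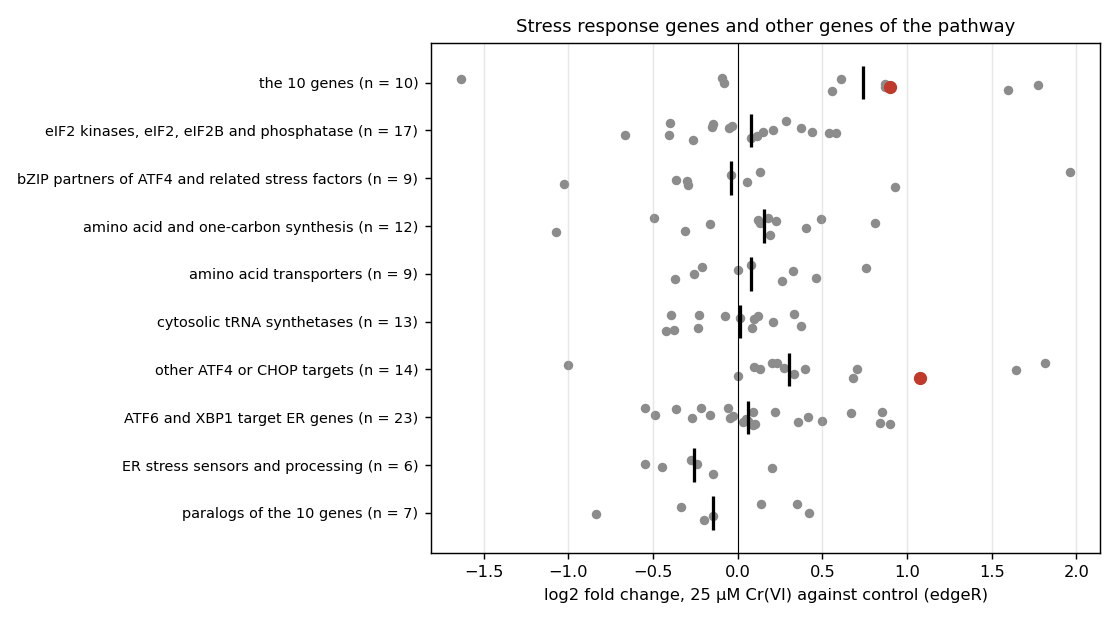
log2 fold change, 25 µM Cr(VI) against control, of every tested gene in each list (1 point per gene, vertical jitter only, black bars at the median, red points for genes with an adjusted p under 0.05 in edgeR). The red points are Trib3 and Vldlr, and the 10 genes have the median furthest above 0, at 0.74. This rank did not hold in treated replicate 1 alone. Against the control mean, the median there was 0.17 for the 10 genes and 0.29 for their paralogs. In treated replicate 2 it was 1.06 and -0.56.

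FAIRE peaks were sought at the 10 genes to ask whether chromatin opened there. Each peak list holds regions open in 1 treated library relative to 1 control library, with no replicate. The lists give no reads per region, so no interval can be set on a peak. At 25 µM, 0 of 10 genes had a peak in the gene or within 10 kb of it, against 11.7% of 13568 tested genes with an annotated position. In the 0.5 µM list 0 of 10 genes had one, against 3.77%. The 10 genes span 2096 to 18045 bp, and as longer genes give wider windows, these shares of all genes are not matched for length. No peak lay within any of the 10 genes in either list, against 7.66% of tested genes with one at 25 µM and 2.62% at 0.5 µM. Within 50 kb, 2 of 10 genes had a peak at 25 µM, against 25.4%, and 0 of 10 at 0.5 µM, against 7.74%.

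The 2 peaks within 50 kb are shown in full because they are the nearest opened chromatin to any of the 10 genes. They are written in lower case on the forward strand of GRCm38.p6 and hold no CARE, AP-1 or UPRE letters, so nothing is in capitals.
Atf4, chr15:80215748-80215847: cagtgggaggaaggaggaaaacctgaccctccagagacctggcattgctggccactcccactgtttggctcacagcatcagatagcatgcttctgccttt
Ddit4, chr10:59991431-59991555: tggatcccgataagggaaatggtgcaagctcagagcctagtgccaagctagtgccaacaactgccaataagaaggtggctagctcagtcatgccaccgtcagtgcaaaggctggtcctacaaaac

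The peak near Atf4, of 100 bp and with a MACS score of 52.38, had its centre 39386.5 bp from the Atf4 start site, upstream and between genes. Its nearest start site of any gene was that of Gm46521, 9803.5 bp away. The peak near Ddit4, of 125 bp and with a score of 56.18, lay 39723 bp upstream of the Ddit4 start site in an intron of Anapc16. Its nearest start site was that of Ascc1, 11099 bp away. Which gene either peak serves was not tested. For the other 8 genes the nearest peak at 25 µM was 71230 bp (Sesn2) to 266693 bp (Hspa5) from a start site. At 0.5 µM the nearest was 257704.5 bp (Sesn2) to 2196692.5 bp (Asns) away. Trib3, the gene called higher by edgeR, had its nearest 25 µM peak 104747.5 bp from its start site.

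**Figure D4:**
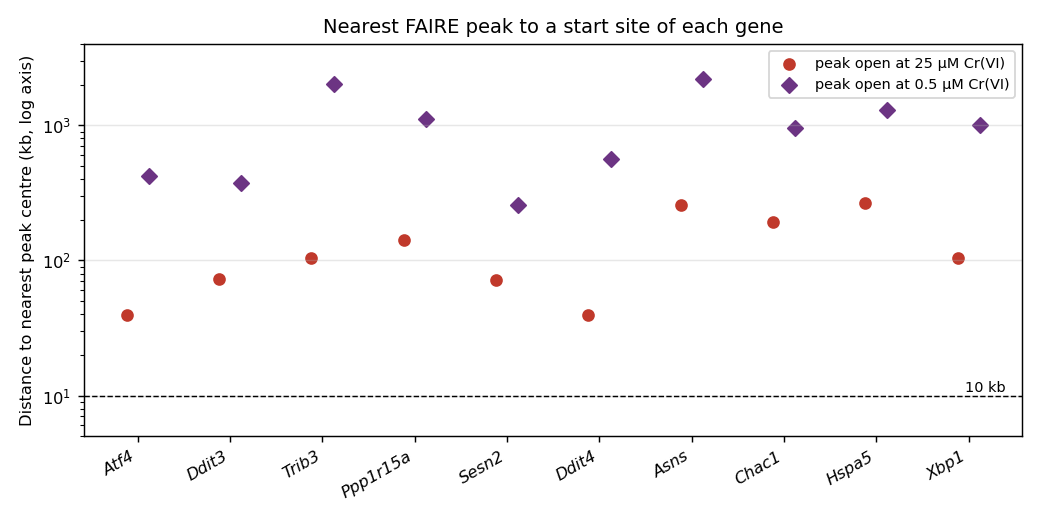
Distance in kb, on a log axis, from the centre of the nearest FAIRE peak to a start site of each gene, circles for peaks open at 25 µM Cr(VI) and diamonds for those at 0.5 µM, with a dashed line at 10 kb. Every point lies above the line, and the 0.5 µM list, with 860 peaks against 2945, gives the longer distance for each gene.

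Among the 118 other pathway genes, 15 (12.7%) had a 25 µM peak within 10 kb and 4 (3.39%) a 0.5 µM peak, close to the shares of all tested genes. Atf6 was in both. Vldlr, the target called by edgeR, was among the 15. Ppp1r15b and Vegfa, called higher by DESeq2 (adjusted p = 0.0364 and 0.00339), also had a 25 µM peak within the gene. Eif2s2, named for its DESeq2 call (adjusted p = 0.0416), had a 0.5 µM peak within the gene. The Vldlr peak, of 103 bp and with a score of 55.24, lay in an intron of Vldlr, 1931 bp from its start site, and within Gm35438 as well. It is shown because it is the one peak at a pathway gene called by edgeR, and it holds no CARE, AP-1 or UPRE letters.
Vldlr, chr19:27218900-27219002: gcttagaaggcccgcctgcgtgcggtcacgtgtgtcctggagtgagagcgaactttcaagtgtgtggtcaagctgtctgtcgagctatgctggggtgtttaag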

How the data were processed

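The RNA-seq values are raw read counts per Entrez gene as deposited. The authors aligned reads to mm10 with TopHat, and the counting tool and its use of strand are not given in the sources used here. The peak score was deposited by the authors from MACS run on BWA alignments, each treated library against its control, and is read here as 10 times −log10 of p, since the lists start at 50, the value of the default cut-off of MACS on that scale.

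Counts were normalized by TMM and filtered by filterByExpr, which left 13619 of 23403 genes for the two-sided quasi-likelihood test of edgeR without a block, adjusted by Benjamini-Hochberg and called under 0.05. The biological coefficient of variation was 0.193. Normalized CPM are counts over the TMM-scaled library size. Positions came from RefSeq of GRCm38.p6 (mm10). The edgeR and DESeq2 fits were tested on simulated counts with the same spread in both groups, unlike the treated and control pairs here. The peak and promoter steps were not tested in this way. The 10 genes and the pathway lists were chosen with earlier results of these data known. Besides the 10 genes, the text names each list's called genes or, with none, the 2 of lowest p. Genes outside this rule are marked or described as markers. The level of 1 liver marker is not reported here. Replicate numbers are shared between groups by name only, and deviations of same-numbered libraries correlated at 0.0909. Alternatives were DESeq2, a replicate block, other normalizations, no filter, each library left out, other peak windows and a score minimum of 100. Tools were samtools 1.23.1 and matplotlib 3.10.9, DESeq2 1.42.0, edgeR 4.0.16 and limma 3.58.1 in R 4.3.3, and pandas 2.3.3 with numpy 2.4.6 in Python 3.11.15.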

Additional observations from a re-analysis of the deposited data

How the results depend on the processing

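Of the 10 genes, all kept the sign of their log2 fold change with the replicate block, library size only, upper-quartile normalization, no filter on low counts, DESeq2 and without either control. The sign changed when a treated library was left out for Ddit3 (1.13 without replicate 1, -0.31 without replicate 2), Xbp1 (-0.47 and 0.23) and Asns (0.0198 and -0.19). The genes called higher and lower were 5 and 1 of 10 with the replicate block, 4 and 1 with DESeq2, and 0 higher with library size only. Leaving out 1 library each gave 0 to 7 called higher and 0 to 3 called lower. Without a treated library the spread comes from the control pair alone and the lone treated library is assumed to vary as they do, so these calls were not used. Without a control the spread comes from the treated pair alone. Over all genes, calls in either direction, higher and lower numbered 2969, 1397 and 1572 with the replicate block and 2073, 1057 and 1016 with DESeq2, and 141 were higher with library size only. Leaving out 1 library each gave 284 to 10659 in either direction, 96 to 5227 higher and 188 to 5432 lower. The labels do not say that the numbers pair the libraries. Genes with a 25 µM peak went from 0 to 2 within 50 kb. The cause of these differences was not tested. With 2 libraries a group and 1 FAIRE library a condition, changes could go undetected, and not only small ones. Ppp1r15a had a log2 fold change of 1.78 (SE 0.80) and Chac1 one of -1.63 (SE 0.56). Neither was called by edgeR's quasi-likelihood test (adjusted p = 0.215 and 0.144).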
